A study of Mus musculus with 202 samples.

Results

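Aminoacyl-tRNA synthetases join each amino acid to its transfer RNA and so supply protein synthesis with its building blocks. Several of their genes are known targets of ATF4, the transcription factor whose translation rises when eIF2alpha is phosphorylated during amino acid shortage or endoplasmic reticulum stress. The synthetases fall into class I and class II by the fold of their catalytic domain, and some of them are held in a multi-synthetase complex by scaffold proteins. Described here are the 10 cytosolic synthetase genes Sars, Nars, Gars, Aars, Tars, Wars, Iars, Lars, Mars and Eprs, picked out of the table by gene symbol. Each had 1 row among the 28987 genes of the deposited table, and all 10 lay above the expression floor used here, which asked for an average of 5 TPM (transcripts per 1000000) or more and for detection (above 0) in 10% of cells or more. The letter before "ars" gives the amino acid in its 1-letter code, and Eprs carries both the glutamate and the proline enzyme. Gars is known to serve cytosol and mitochondria from 1 gene.

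All cells were of 1 cultured mouse line (strain label KPC) of pancreatic ductal adenocarcinoma, which originated in a male animal's liver metastasis and was used at passages 4 to 6. The labels name no drug or genetic change that differs between the groups. The cells were stained with an antibody against E-cadherin, the epithelial adhesion protein, and sorted into a negative fraction (Ecad-) and a positive fraction (Ecad+), with endoplasmic reticulum stress named in the title of the study. Single cells were caught on a Fluidigm C1 device and amplified with SMARTer chemistry, which keeps no strand and uses no molecular identifiers.

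The table held 98 Ecad- and 104 Ecad+ libraries. Among them were 5 pairs of near-identical libraries (r of 0.984 to 0.994, where the closest remaining pair had 0.939), and the libraries of a pair were merged by their mean into 1 cell. This left 97 Ecad- and 100 Ecad+ cells in 3 library sets, named by a suffix whose meaning is not stated. No label names separate cultures, so each group is 1 sample, no p-value is given, and SDs describe the spread between cells. In 40 of 97 Ecad- and 1 of 100 Ecad+ cells, under 1% of the TPM fell on mitochondrial genes. Results are also given without these low-share cells. All 7 carcinoma markers (keratins, Epcam, Cldn7 and Cdh1) were above the floor, with a summed level of 3.17 to 12184 TPM in Ecad- cells and 752 to 12019 TPM in Ecad+ cells. No fibroblast or endothelial marker was above the floor, and the pan-leukocyte gene Ptprc was at 0 in every cell. Above the floor were 2 of 6 immune markers, with sums of 0 to 481 TPM in Ecad- cells and 0 to 333 TPM in Ecad+ cells, and 1 of 5 hepatocyte markers, with sums of 0 to 642 TPM in Ecad- cells and 0 to 218 TPM in Ecad+ cells. The part of these markers in the results was not tested.

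ATF4 with a C/EBP partner is known to bind a composite element, and the element of the Asns promoter, TGATGAAA, is a textbook case. Promoter windows from RefSeq (build GRCm38.p6, 250 bases before to 50 after the annotated start) were searched on both strands for TGATGNAA. A window was searched for 7 of the 10 synthetase genes. No window of Nars, Lars or Wars was searched, so whether their promoters hold the motif was not tested. The motif was in the windows of Gars, Aars, Tars and Iars. It was not in those of Sars, Mars and Eprs. Of all 32851 windows in the table, 3.97% held it. Of the 10 other cytosolic synthetase genes, 6 had a window that was searched, and Yars alone of these had a match. For each gene with a match, 1 match is shown as 30 bases along the gene's strand with the motif in capitals, not every match in the window, so that the shared letters can be compared, with Asns as the known case. TTGCATCA and TTTCATCA are the motif read on the opposite strand.
Asns: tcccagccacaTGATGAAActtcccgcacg
Gars: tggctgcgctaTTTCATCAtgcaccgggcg
Aars: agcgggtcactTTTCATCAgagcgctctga
Tars: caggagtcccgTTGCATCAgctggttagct
Iars: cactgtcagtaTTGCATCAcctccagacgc
Yars: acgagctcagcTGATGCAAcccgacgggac
The shown stretches lie at chr6:7693214-7693243 (minus strand) for Asns, chr6:55037960-55037989 (plus) for Gars, chr8:111033840-111033869 (plus) for Aars, chr15:11399655-11399684 (minus) for Tars, chr13:49682126-49682155 (plus) for Iars and chr4:129189895-129189924 (plus) for Yars. Counted from the start annotated in RefSeq, the motif began at -23 in Asns, -30 in Gars, 10 in Aars, -15 in Tars, 8 in Iars and 4 in Yars. The RefSeq starts can differ from the GENCODE gene bounds given below, as for Aars. The stretches shown for Tars and Iars have the same 8 letters, and that for Yars has them on the other strand. The stretches shown for Gars and Aars have the letters of Asns, read on the opposite strand.

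Sars, which had the second highest ratio of Ecad- to Ecad+ level among the 10 genes, is shown with the 150 bases before its start (chr3:108445260-108445409, minus strand), where the motif was not found.
Sars: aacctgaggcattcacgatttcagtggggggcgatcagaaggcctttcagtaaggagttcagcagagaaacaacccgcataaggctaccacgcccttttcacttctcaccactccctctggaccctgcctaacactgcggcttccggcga
These windows are short, and a match or its lack is a description of the letters only.

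Summed over the 10 genes, synthetase transcripts made up more of the TPM, on average, in Ecad- cells. The sum was 89.3 TPM in the lowest, 786 TPM in the median and 3095 TPM in the highest Ecad- cell, against 117 TPM in the lowest, 407 TPM in the median and 3479 TPM in the highest Ecad+ cell. The groups overlapped over nearly their whole range, since 75 of 97 Ecad- cells lay above the Ecad+ median and 0 above the highest Ecad+ cell. The sum averaged 932 ± 643 TPM over 97 Ecad- cells and 510 ± 479 TPM over 100 Ecad+ cells (SD over cells), a log2 ratio of 0.87 (Ecad- over Ecad+, 1 TPM added to each mean). By set, Ecad- libraries averaged 993, 780 and 999.7 TPM in sets 1, 2 and 3, against 729, 441 and 423 TPM for Ecad+ libraries. The direction was thus the same in each set, with the gap narrowest in set 1. Both Ecad+ cells with the highest sums, 3479 and 2983 TPM, belong to set 1, had 655 and 302 TPM of Atf4, and held the highest Ecad+ value of 9 of the 10 genes. The cell with 2983 TPM is the 1 low-share Ecad+ cell, so all values without low-share cells leave it out. The mean Ecad+ sum was then 485 TPM. Without low-share cells 57 Ecad- cells had a median sum of 520.3 TPM, against 405 TPM for 99 Ecad+ cells. In median, 8.78% of the TPM fell on mitochondrial genes in Ecad- cells, against 30.0% in Ecad+ cells. The median ratio of all genes above the floor was 0.31. After rescaling without mitochondrial and ribosomal protein genes, the median ratio was 0.43 for the 10 genes and 0.0062 for all genes. The part of the mitochondrial share in the sum was not tested.

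The difference was uneven among the 10 genes. A log2 ratio of at least 1, a doubling of the mean, was reached by 2 of 10, Nars and Sars, against 14.2% of all 7227 genes above the floor, so this share is near that of all genes. No gene of the 10 was at -1 or lower, against 4.14% of all genes. Without low-share cells the same 2 genes were at 1 or more, against 4.94% of all genes. A ratio above 0 in each of the 3 library sets was found for 8 of 10, against 44.9% of all genes, and one below 0 in each for 0 of 10, against 14.8%. The median ratio of the 10 was 0.71 and that of all genes 0.31, and 8 of the 10 lay above the all-gene median. The list median stood 0.41 above that of all genes, with 0.08, 0.08 and 0.94 in sets 1, 2 and 3. It stood 0.06 above it when set 3 was left out, so the distance depended on set 3, in which 22 of 33 Ecad- libraries were low-share. Without low-share cells the distance was 0.41 over all sets, with 9 of 10 genes above the all-gene median of 0.14.

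**Figure D1:**
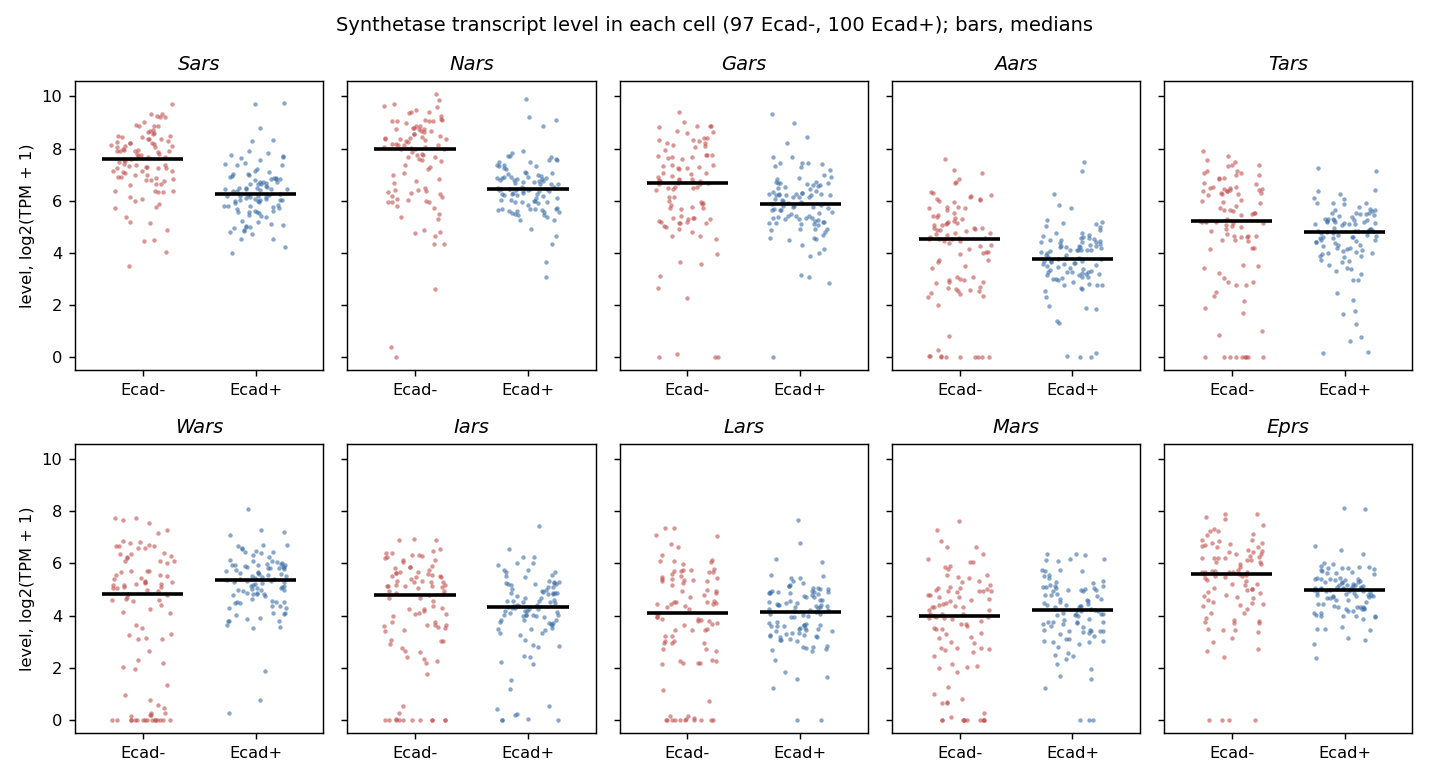
Level of each synthetase transcript, log2(TPM + 1), in each of 97 Ecad- cells (left, red) and 100 Ecad+ cells (right, blue), with bars at the medians. The medians of Sars and Nars lie visibly higher in Ecad- cells, while those of Wars, Lars and Mars do not, and for every gene but Sars more Ecad- than Ecad+ cells are listed at 0.

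The class II enzymes for serine, asparagine, glycine, alanine and threonine were the 5 with the highest ratios. Sars, seryl-tRNA synthetase, had 10.2 TPM in the lowest, 191 TPM in the median and 836 TPM in the highest Ecad- cell, against 15.1, 75.2 and 859 TPM in Ecad+ cells. Of the Ecad- cells, 83 of 97 were above the Ecad+ median. Its log2 ratio was 1.06, with 0.66, 0.87 and 1.52 in sets 1 to 3 and 1.06 without low-share cells. Nars, the asparagine enzyme, was at 0 in the lowest Ecad- cell, 254 TPM in the median and 1087 TPM in the highest, against 7.51, 86.6 and 959 TPM in Ecad+ cells. It had the highest ratio of the 10, 1.28, with 0.74, 1.51 and 1.52 in the sets and 1.04 without low-share cells. Of the Ecad- cells, 58 of 97 lay above 190.4 TPM, the 90th percentile of Ecad+ cells. Sars and Nars together made up 55.3% of the summed mean in Ecad- cells and 44.3% in Ecad+ cells.

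Tars, the threonine enzyme, had a median of 36.7 TPM in Ecad- cells (0 to 239.7 TPM) and 26.6 TPM in Ecad+ cells (0.109 to 149.8 TPM). Its ratio was 0.85, with 0.67, 0.52 and 1.19 in the sets. Gars, the glycine enzyme, had a median of 101 TPM in Ecad- cells (0 to 672 TPM) and 57.8 TPM in Ecad+ cells (0 to 636 TPM). The ratio was 0.80, with 0.31, 0.67 and 1.34 in the sets. Without low-share cells the ratios were 0.69 for Tars and 0.77 for Gars. Aars, the alanine enzyme, had a median of 22.4 TPM in Ecad- cells (0 to 194 TPM) and 12.7 TPM in Ecad+ cells (0 to 177 TPM). Its ratio was 0.75, against 0.26 without low-share cells, and was 0.08 in set 1 and 1.48 in set 3, the widest spread of the 10 genes. Annotated exons of Aars share 1326 bases with Exosc6 on the same strand, so the value of Aars is less certain than the others.

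Eprs and the class I enzymes stood lower. Eprs, part of the multi-synthetase complex, had a median of 47.1 TPM in Ecad- cells (0 to 236 TPM) and 30.2 TPM in Ecad+ cells (4.19 to 281 TPM). Its ratio was 0.68, with 0.16, 0.52 and 1.21 in the sets and 0.51 without low-share cells. Lars, the leucine enzyme that also serves as a leucine sensor for mTORC1, had nearly equal medians of 16.3 TPM in Ecad- cells (0 to 165 TPM) and 16.7 TPM in Ecad+ cells (0 to 201 TPM). Its ratio of means was 0.40, and the mean of log2 values was lower in Ecad- cells by a difference of -0.20. Iars, the isoleucine enzyme, had a median of 26.7 TPM in Ecad- cells (0 to 122 TPM) and 18.9 TPM in Ecad+ cells (0 to 172 TPM), with a ratio of 0.37. Both ratios were above 0 in each set, at 0.08, 0.23 and 0.82 for Lars and 0.33, 0.20 and 0.50 for Iars. Without low-share cells they were 0.59 for Lars and 0.43 for Iars.

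Mars and Wars did not share the higher level. Mars, the methionine enzyme, had a median of 14.7 TPM in Ecad- cells (0 to 198 TPM) and 17.4 TPM in Ecad+ cells (0 to 81.9 TPM). Its ratio was 0.10, with -0.09, 0.22 and -0.03 in the sets and 0.26 without low-share cells. It was -0.05 with a trimmed mean, -0.46 with means of log2 values, -0.21 after centring on the all-gene median, -0.13 after rescaling without mitochondrial and ribosomal protein genes, and -0.01 without set 2. Mars lies tail to tail with Ddit3, the gene of the stress factor CHOP, and their annotated exons overlap by 68 bases on opposite strands (chromosome 10, mm10). Since Ddit3 averaged 562 TPM in Ecad- cells and 31.1 TPM in Ecad+ cells, and reads carry no strand, reads of this overlap cannot be assigned to either gene. Wars, the tryptophan enzyme, known also as an interferon-induced gene, had a median of 27.4 TPM in Ecad- cells (0 to 212 TPM) and 39.6 TPM in Ecad+ cells (0.209 to 271 TPM). Its ratio was the lowest of the 10, -0.19, with -0.44 and -0.54 in sets 1 and 2 but 0.19 in set 3, and -0.07 without low-share cells.

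**Figure D2:**
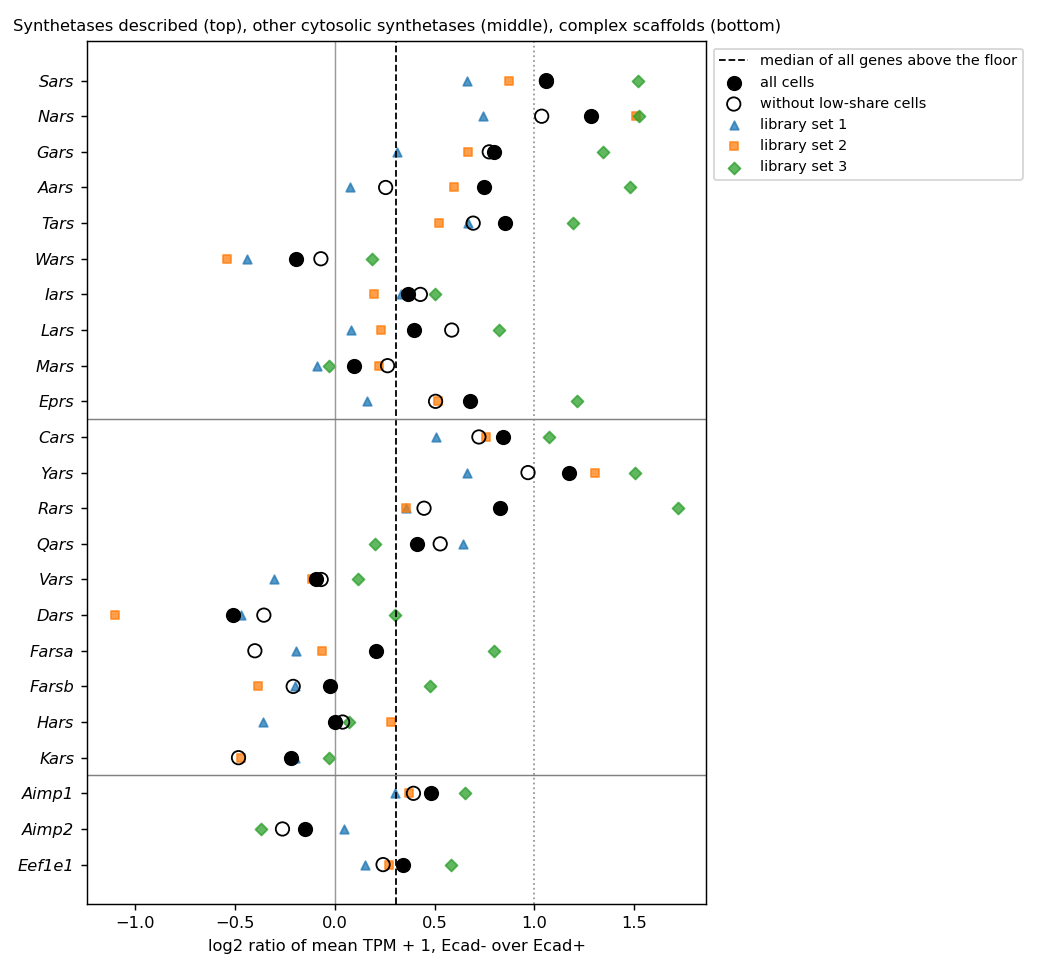
Log2 ratio of the mean level in Ecad- over Ecad+ cells for the 10 synthetases described (top), the 10 other cytosolic synthetases (middle) and 3 scaffold genes (bottom); filled circles use all cells, open circles leave out low-share cells and small symbols are the 3 library sets. The dashed line is the all-gene median of 0.31; Nars and Sars stand to the right of 1 and Wars to the left of 0.

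The genes lie, in mm10 coordinates from GENCODE, at chr3:108424865-108445209 (Sars), chr18:64499647-64516652 (Nars), chr6:55038007-55079500 (Gars), chr8:111033144-111057664 (Aars), chr15:11382301-11399665 (Tars), chr12:108860030-108894174 (Wars), chr13:49682100-49734267 (Iars), chr18:42202298-42262194 (Lars), chr10:127296221-127311786 (Mars) and chr1:185363044-185428360 (Eprs). Nars and Lars are thus on 1 chromosome but far apart, and no other pair of the 10 shares one.

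In absolute level the 10 genes kept a similar order in the groups. By mean TPM, which accounts for transcript length, the order was Nars (286), Sars (229), Gars (144), Eprs (59.8), Tars (56.1), Wars (41.4), Iars (31.9), Aars (31.0), Lars (28.5) and Mars (24.5) in Ecad- cells. In Ecad+ cells it was Nars (117), Sars (109), Gars (82.2), Wars (47.5), Eprs (37.0), Tars (30.7), Iars (24.5), Mars (22.8), Lars (21.4) and Aars (18.0). Wars thus held rank 6 in Ecad- cells and rank 4 in Ecad+ cells. For all 9 neighbouring pairs in each order, the gap was smaller than the larger SD over cells of the pair.

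Ecad- cells missed synthetase transcripts more often even where the means were higher. All 10 genes were above 0 in 58 of 97 Ecad- cells (59.8%, exact Clopper-Pearson 95% interval 49.3% to 69.6%) and in 92 of 100 Ecad+ cells (84.8% to 96.5%). Without low-share cells it was 36 of 57 Ecad- and 91 of 99 Ecad+ cells. For Wars, 81 of 97 Ecad- cells had a value over 0 (74.6% to 90.3%), as did 100 of 100 Ecad+ cells (96.4% to 100%). Sars was above 0 in all 97 Ecad- and all 100 Ecad+ cells. These intervals are for the counting of cells alone, with each cell taken as independent, though the cells of a group come from 1 sample. Ecad- cells had fewer genes above 0 in general, with a median of 8694 genes against 10338 in Ecad+ cells, and read depth is unknown. With means of log2 values, which weigh zeros heavily, Wars, Lars and Mars were lower in Ecad- cells, with differences of -1.31, -0.20 and -0.46, and just 1 of 10 genes, Sars, had a difference of at least 1, at 1.09.

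The 10 remaining cytosolic synthetases had a lower median ratio, 0.10, with 4 of 10 above the all-gene median. The lists were chosen with earlier results of these data known, so they are no independent comparison here or below. Yars (tyrosine) stood at 1.18, Cars (cysteine) at 0.84 and Rars (arginine) at 0.83. Without low-share cells they were at 0.97, 0.72 and 0.45. Qars (glutamine) stood at 0.41, Farsa and Farsb (the subunits for phenylalanine) at 0.21 and -0.03, and Hars (histidine) at 0.0032. Vars (valine) stood at -0.09, Kars (lysine) at -0.22 and Dars (aspartate) at -0.51. Yars, which averaged 59.5 TPM in Ecad- cells and 25.8 TPM in Ecad+ cells, was the 1 gene of the 10 past a ratio of 1, against 14.2% of all genes. Without low-share cells 0 of the 10 were past it, against 4.94% of all genes. Farsa was at -0.40 without low-share cells.

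Enzyme class divided these lists in opposite ways. In the list described, the 5 class II genes lay between 0.75 and 1.28 and the 4 purely class I genes between -0.19 and 0.40. Among the other cytosolic synthetases the 5 class I genes had a median of 0.83 and the 5 class II genes one of -0.03. Over all 20 genes the medians were 0.48 for the 10 class II and 0.40 for the 9 class I genes, and in the other order without low-share cells, 0.15 for class II and 0.45 for class I. Membership of the multi-synthetase complex gave a median of 0.38 for the 8 genes inside it and 0.77 for the 12 outside it, and without low-share cells 0.44 and 0.47. This division was made after the values were seen, and no test was made. Of the 3 scaffold genes of the complex, Aimp1 stood at 0.48, Eef1e1 at 0.34 and Aimp2 at -0.15. Of the synthetases of mitochondria, 9 of 17 were above the floor, with a median of 0.06 and 2 of 9 above the all-gene median. Lars2 stood at 1.11 (361 TPM in Ecad- cells and 167 TPM in Ecad+ cells, with 5932 TPM in 1 Ecad- cell), Yars2 at 0.61 and Tars2 at -0.44.

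Atf4 was compared with each gene cell by cell, separately within the groups so that the difference between groups did not enter. Its own level averaged 363 TPM over Ecad- cells, against 76.9 TPM over Ecad+ cells, with medians of 193 and 59.7 TPM. The highest value, 7500 TPM, was that of a low-share Ecad- cell of set 3. The ratio of means was 2.22, with 1.07, 1.97 and 3.02 in sets 1 to 3 and 1.16 without low-share cells. With a trimmed mean the ratio was 1.91, and with means of log2 values 1.58. All 10 synthetases correlated positively with Atf4 in both groups. The median Spearman rho was 0.41 over Ecad- cells (0.17 to 0.58) and 0.48 over Ecad+ cells (0.37 to 0.61), whereas all 7227 genes had a median rho of 0.07 over Ecad- and 0.14 over Ecad+ cells. A rho of at least 0.3, a limit set after seeing the values, was reached by 7 of 10 genes over Ecad- cells, against 11.3% of all genes. Over Ecad+ cells it was reached by 10 of 10, against 16.6% of all genes. The 3 below it in Ecad- cells were Iars at 0.24, Lars at 0.23 and Mars at 0.17. The cells of a group come from 1 sample, and the TPM values of a cell share 1 total, so these values are descriptions.

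Of the 10 genes, Sars followed Atf4 most closely over all Ecad- cells, with a rho of 0.58 that 0.18% of all genes reached. Its rho was 0.74, 0.76 and 0.350 over Ecad- libraries of sets 1, 2 and 3. In set 3 Eprs (0.48), Wars (0.40), Aars (0.37) and Tars (0.352) were higher. In Ecad+ cells Aars was highest, with a rho of 0.61 reached by 0.055% of all genes. Eprs had 0.51 in Ecad- and 0.51 in Ecad+ cells. Wars, which was not higher on average in Ecad- cells, still varied with Atf4 among them, with a rho of 0.37 in Ecad- and 0.50 in Ecad+ cells. Within library sets 1, 2 and 3 the median rho of the 10 genes was 0.52, 0.34 and 0.34 over Ecad- libraries and 0.56, 0.59 and 0.40 over Ecad+ libraries. In Ecad- libraries of set 2 Wars had a rho of 0.01, against 0.51 in set 1 and 0.40 in set 3.

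**Figure D3:**
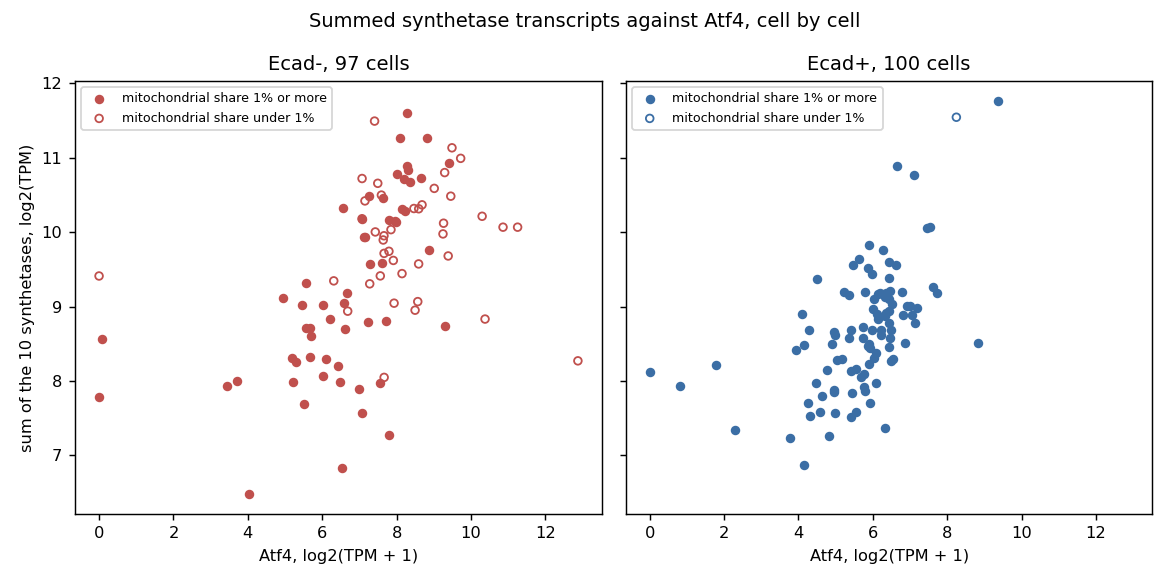
Sum of the 10 synthetase transcripts, log2(TPM), against Atf4, log2(TPM + 1), in each of 97 Ecad- cells (left) and 100 Ecad+ cells (right); open circles are low-share cells. The sum is higher in cells with more Atf4 in both panels, with a Spearman rho of 0.59 in each.

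In median the relation was weaker once the make-up of the libraries was held constant. Atf4 itself had a rho of -0.53 with the mitochondrial share of TPM in Ecad- cells and -0.43 in Ecad+ cells, and one of 0.08 in Ecad- and 0.26 in Ecad+ cells with the number of genes above 0. With both held constant, the partial rho had a median of 0.31 over Ecad- cells (0.13 to 0.48) and 0.25 over Ecad+ cells (0.13 to 0.39). Over Ecad- cells it was above the plain rho for Wars (0.38 against 0.37), Lars (0.29 against 0.23) and Mars (0.20 against 0.17). The all-gene median of the partial rho was -0.0069 over Ecad- and 0.01 over Ecad+ cells. A partial rho of at least 0.3 remained for 5 of 10 genes over Ecad- cells, against 1.88% of all genes, namely Sars, Nars, Tars, Wars and Eprs. Over Ecad+ cells it was 3 of 10, Aars, Tars and Wars, against 0.996% of all genes. Without low-share cells the median rho was 0.53 over 57 Ecad- cells and 0.47 over 99 Ecad+ cells, and each of the 10 genes was then at 0.43 or more over Ecad- cells.

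**Figure D4:**
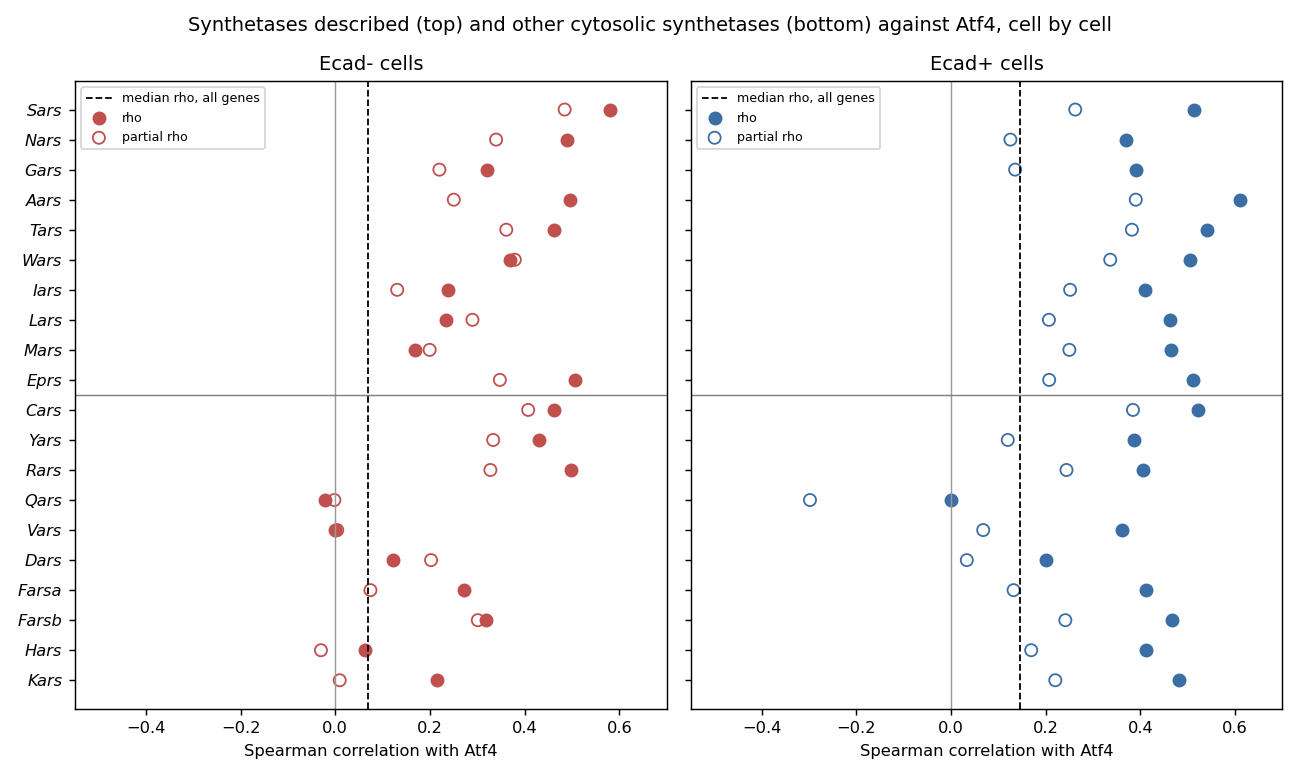
Spearman rho with Atf4 across cells (filled) and partial rho given mitochondrial share and genes above 0 (open) for the 10 synthetases described (top) and the 10 other cytosolic synthetases (bottom), over Ecad- cells (left) and Ecad+ cells (right). The 10 genes described span 0.17 to 0.58 over Ecad- cells and 0.37 to 0.61 over Ecad+ cells; the filled circle of Qars lies near 0 in both panels.

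The other cytosolic synthetases had a median rho with Atf4 of 0.24 over Ecad- and 0.41 over Ecad+ cells. Rars (0.50), Cars (0.46), Yars (0.43) and Farsb (0.32) were the 4 at 0.3 or more over Ecad- cells, while Qars (-0.02), Vars (-0.0014) and Hars (0.06) were near 0. The mitochondrial synthetases above the floor had a median of 0.02 over Ecad- and 0.16 over Ecad+ cells. Among known ATF4 targets, Asns, asparagine synthetase, had 0.53 in Ecad- and 0.47 in Ecad+ cells, and Trib3, a pseudokinase, had 0.60 in Ecad- and 0.39 in Ecad+ cells. Ddit3 had 0.50 in Ecad- and 0.39 in Ecad+ cells. Eif2ak4, the gene of the eIF2alpha kinase that senses uncharged transfer RNA, was below the floor, averaging 2.51 TPM in Ecad- cells and 2.198 TPM in Ecad+ cells.

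The 10 genes also varied with each other. All 45 pairs correlated positively, with a median rho of 0.46 over Ecad- cells (0.16 to 0.69) and 0.51 over Ecad+ cells (0.29 to 0.69). The make-up of the libraries was not held constant for the correlations of pairs. Over all pairs of genes above the floor the median was 0.07 in Ecad- and 0.08 in Ecad+ cells. The closest pair in Ecad- cells was Sars with Nars at 0.69, and in Ecad+ cells Lars with Eprs at 0.69. The loosest was Aars with Mars at 0.16 in Ecad- cells and Tars with Iars at 0.29 in Ecad+ cells. For the 45 pairs of the other cytosolic synthetases the median was 0.14 over Ecad- and 0.40 over Ecad+ cells. For 36 pairs of mitochondrial synthetases it was 0.06 over Ecad- and 0.10 over Ecad+ cells.

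**Figure D5:**
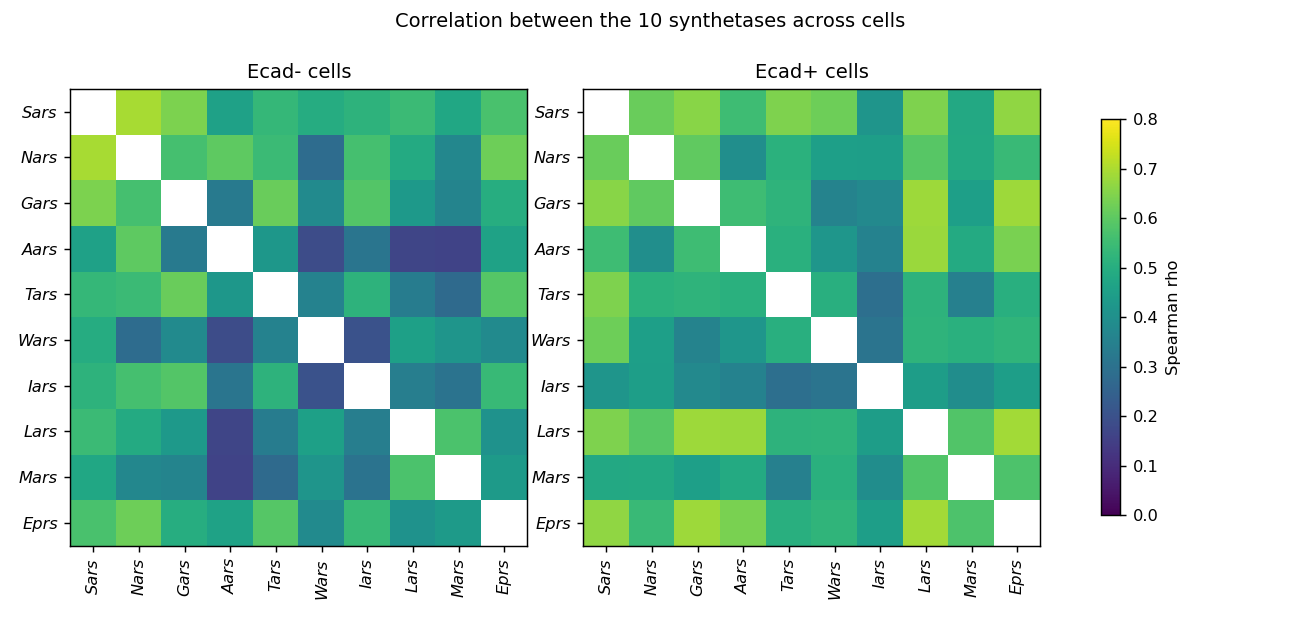
Spearman rho between each pair of the 10 synthetases across Ecad- cells (left) and Ecad+ cells (right), on a colour scale starting at 0. All 45 pairs are above 0 in both panels; the darkest squares on the left belong to Aars with Mars, Lars and Wars.

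The genes whose levels most resembled the mean log2 level of the 10 synthetases were ranked by the smaller rho of the groups, over 97 Ecad- and 100 Ecad+ cells. This rho too was taken without holding the make-up of the libraries constant. Asns came first, with 0.76 in Ecad- and 0.70 in Ecad+ cells. Psph, the last enzyme of serine synthesis, followed with 0.70 in Ecad- and 0.72 in Ecad+ cells. Next were Mthfd2, a mitochondrial folate enzyme, with 0.65 in Ecad- and 0.66 in Ecad+ cells, and Hax1 with 0.64 in Ecad- and 0.66 in Ecad+ cells. Eif3c, a subunit of an initiation factor, had 0.63 in Ecad- and 0.74 in Ecad+ cells. Cyb5r1, Shmt2 (mitochondrial serine hydroxymethyltransferase), Hspa9 (a mitochondrial chaperone), Phgdh (the first enzyme of serine synthesis) and Yars completed the 10, with smaller values between 0.58 and 0.63. Likeness across cells did not require a difference between groups. Phgdh averaged 357 TPM in Ecad- cells and 349 TPM in Ecad+ cells (ratio 0.03), and Asns 453 TPM in Ecad- cells and 139.7 TPM in Ecad+ cells (ratio 1.69). Atf4 itself ranked 49th, with 0.47 in Ecad- and 0.63 in Ecad+ cells.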

How the data were processed

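The authors deposited 1 table of log2 values per gene and single-cell library. After undoing the log and taking off 1, libraries summed to 933711 to 987134, so the deposited values were read as log2(TPM + 1). Kallisto, mm10 and FastQC 0.11.5 are named in the submitters' processing notes. No source used here gives the index, gene summing or cell filters. Kallisto can split reads among similar transcripts, and TPM is relative within a cell and keeps no depth. The authors' group means, fold changes and p-values in the same table were not used.

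Groups came from the sample titles and library sets from the library names. Libraries correlating over 0.97 were averaged as 1 cell. Values within a set kept both libraries of a pair apart, each under its set, so that 5 cells occur in more than 1 set. Levels are mean TPM over cells, and ratios have 1 TPM added to each mean. The members and lists were chosen with earlier results of these data known. Genes named are the 10 members, Atf4, the other cytosolic synthetases, scaffolds, Eif2ak4, Ddit3, Asns and Trib3, up to 4 of each other list (2 for elongation) with the largest absolute ratio, and the 10 most alike genes. Some items that this rule or the promoter search covers are not reported here. Exosc6 was named for its overlap with Aars. Partial correlations used residuals of ranks. Gene positions came from GENCODE M21 (GRCm38, mm10). Steps were tested on simulated data. Python 3.11.15, numpy 2.4.6, pandas 2.3.3 and scipy 1.17.1 were used.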

Additional observations from a re-analysis of the deposited data

How the results depend on the processing

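No paired analysis was possible because the results come from no test. A replicate number names 1 library, and the values within each library set stand in the report. Spread was judged against the SD of the 3 library sets, which share 5 cells and are no replicates. Of 150 ratios of the 10 synthetases under 15 alternatives, 140 moved by less than that SD and 6 took the other sign, 5 of Mars and 1 of Lars. The alternatives with no floor and with a floor of 50 TPM reuse the same ratios. Their values count among the 140 but could not move. The number of genes at a ratio of at least 1, 2 over all cells, was 1 with means of log2 values, 0 after centring on the all-gene median, 1 after rescaling without mitochondrial and ribosomal protein genes, 4 without library set 1, 1 without set 3 and 1 with sets weighted equally. The number higher in each set, 8, was 4 with means of log2 values, 5 after centring, 6 after rescaling, 7 without low-share cells and 3 with a floor of 50 TPM, which just 3 genes pass. The median distance to all genes ranged from 0.06 without set 3 to 0.71 with no floor. The median rho with Atf4 was 0.53 over Ecad- cells without low-share cells. Over Ecad+ cells it was 0.25 as a partial rho and 0.36 after rescaling. Pseudocounts of 0.1 and 10, leaving out the 10% of cells with the fewest genes (20 Ecad- and 0 Ecad+ cells) and all libraries counted separately gave 2 genes at 1 or more and 8 or 9 higher in each set. The all-gene median itself, 0.31, was -0.28 with means of log2 values and 0.0062 after rescaling. Read depth is unknown for TPM values, and the counting error of reads is therefore not given.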

Other observations

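Genes that act on transfer RNA after or beside charging lay close to all genes. With 15 such genes past the floor, 9 exceeded the all-gene median, 8 were higher in each library set (44.9% of all genes were), 0 were lower in each (14.8% of all genes were), and the list median of 0.41 was close to the 0.31 of all genes. Gatb, a subunit of the mitochondrial glutamyl-tRNA amidotransferase listed under an older symbol, stood at 0.93 (mean 9.67 TPM over Ecad- and 4.60 TPM over Ecad+ cells) but at -0.33 in set 2. Rpp30, a ribonuclease P subunit, stood at 0.84 and Tprkb at 0.82. Without low-share cells Rpp30 was at 0.18 and Tprkb at 0.31.

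Among 7 elongation and termination genes the highest ratios belonged to the release factors. Etf1, which recognises stop codons, had a mean of 74.5 TPM over Ecad- and 34.0 TPM over Ecad+ cells, giving a ratio of 1.11 with 0.85, 1.25 and 1.18 in the sets. It was 0.81 without low-share cells and 0.72 after rescaling without mitochondrial and ribosomal protein genes. Gspt1, its GTPase partner, stood at 0.60, with -0.09 in set 3. The median of the 7 genes was 0.19, below that of all genes. Their median rho with Atf4 was 0.04 over Ecad- and 0.31 over Ecad+ cells.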
